A study of Mus musculus with 4 samples.

Results

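The genes described here drive, check or restrain the cell cycle, or copy DNA. They were read in dendritic cells kept with SEA, LPS, both or neither. The list names 41 genes, of which 22 act in mitosis, 14 in DNA replication and 5 in G1, the phase in which a cell commits to divide. They were listed by name from what they do, with earlier results of these data known. A probe set of 1 gene symbol named 40 of them among 12393 genes in all. Ccnb1 had none and was not analysed here. Total RNA was measured in 4 samples, 1 in each of 4 groups, after 6 h in media alone (MEDIA), in SEA, in LPS, or in both agents at once (SEA/LPS). All 4 samples were CD11c+ dendritic cells from animals lacking interleukin 10 (IL10-/-), so the controls carry that deficiency too. The labels give every sample the same lot and name no dose, tissue of origin, strain, age, or separate cultures or animals. LPS is lipopolysaccharide of the bacterial outer membrane, sensed through TLR4. The labels do not expand SEA, and no value below rests on a reading of it.

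A cell copies its DNA in S phase and separates the copies in mitosis. Cyclins switch on cyclin-dependent kinases: D-type cyclins act in G1, cyclin E at the entry to S phase, cyclin A in S phase and beyond, and B-type cyclins in mitosis. Many replication genes are transcribed through E2F factors, and many mitotic genes through a later programme that reads the CHR element of their promoters. Dendritic cells are antigen-presenting cells that divide as precursors and mostly stop dividing as they mature.

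Each difference below compares 1 array with 1 array. No test was possible, no difference could be checked against replicates, and precision is limited by having so few arrays. Values are array signals. Any signal not above 33.3, which is the pooled 40th percentile, was set to that floor, and a fold against an array at the floor is given as "at least". A gene is called higher or lower at 2-fold or more. Of the 40 named members, 30 lay above the floor on all 4 arrays, 6 on some of them and 4 on none (Bub1, Kif20a, Tyms and Cdc6). The 36 with a signal above the floor on at least 1 array are called measured, among 9473 measured genes of the whole series. A member that passed only through the array where it is high had to differ, so counts over the measured members describe them and support nothing further.

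The arrays resembled each other in their general figures. Median probe set signals lay between 45.1 and 53.2, and 57.3% to 61.1% of probe sets exceeded the floor. Itgax, which encodes CD11c, was bright on every array (1851 to 2732), and Il10, the gene the animals lack by label, read 37.9 in MEDIA, 52.1 in SEA, 304 in LPS and 93.0 in SEA/LPS, on a probe set that was not placed relative to the altered part here. Of 7 named T and NK cell markers, Cd3e, Cd3d, Cd3g, Cd2 and Cd4 were at the floor on all 4 arrays, and Cd8a and Ncr1 were measured, with summed signals of 49.1 to 107.7. Of 6 named B cell markers, Cd79b and Pax5 were at the floor on all arrays, and Cd79a, Ms4a1, Igll1 and Vpreb1 were measured, with sums of 78.4 to 173.3. In the erythroid list 3 of 4 named markers were measured (sums of 183.2 to 293.5, with Alas2 at the floor on all arrays), and Epor and Klf1 exceeded the floor on every array. In the stromal list 2 of 5 were measured (sums of 111.9 to 178.2, with Col3a1, Dcn and Sparc at the floor on all arrays), and Col1a2 exceeded the floor on every array. Both of these sums were lowest in MEDIA and highest in SEA. Of 9 named markers of neutrophils and granulocyte precursors, 5 were measured (S100a9, Prtn3, Ctsg and Camp were at the floor on all arrays), with summed signals of 334.5 in MEDIA, 379.8 in SEA, 473.6 in LPS and 461.8 in SEA/LPS. All 7 macrophage markers were measured, and their sum was 9121 in MEDIA, 10565 in SEA, 11737 in LPS and 11931 in SEA/LPS. The sum of 10 dendritic cell markers was 28827, 29896, 34992 and 26454 in the same order. With LPS alone, 3 macrophage markers read above MEDIA and 4 below it. Cd14 read 1559 in MEDIA and 5401 in LPS, while Mrc1 and Itgam were at least 2-fold lower. Of the dendritic cell markers, 5 read above MEDIA and 5 below it, so the sums do not speak for each marker. The part of these levels in the results below was not tested, and in bulk RNA fewer dividing cells and less of a transcript per cell cannot be told apart.

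**Figure D1:**
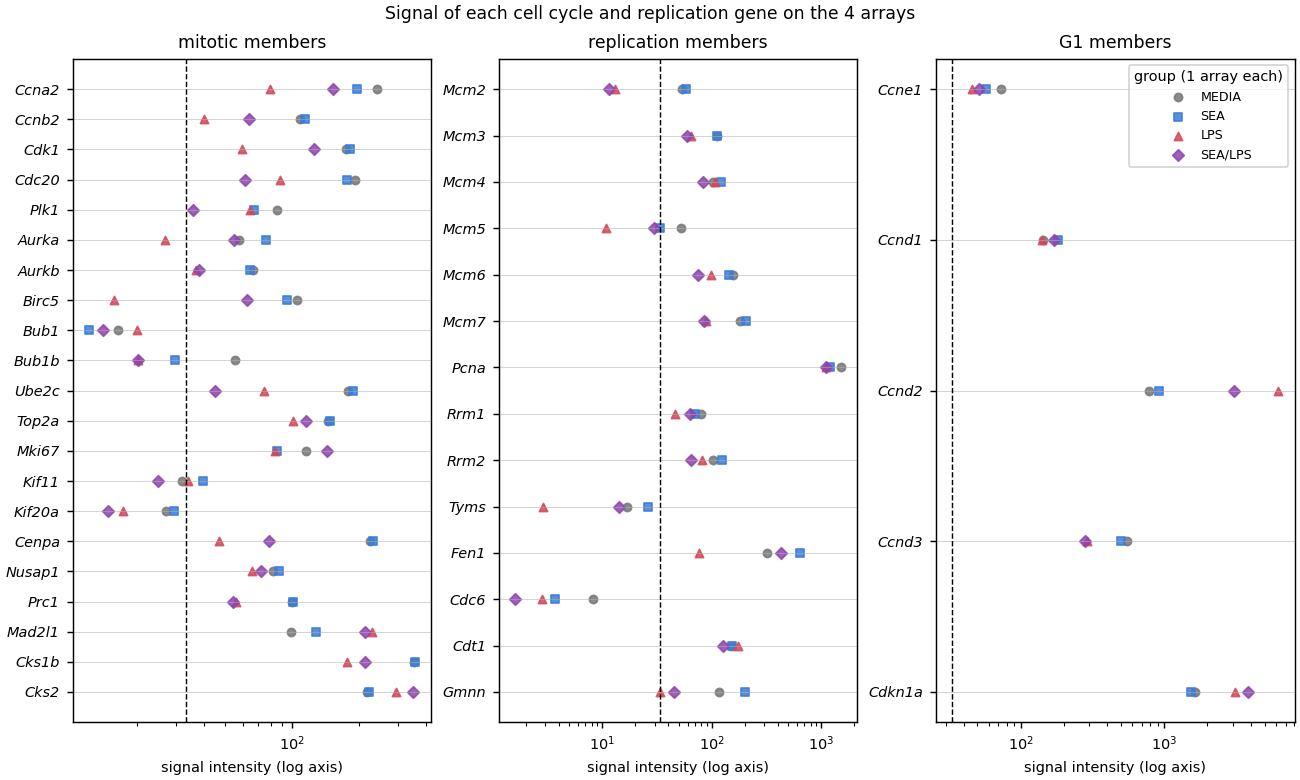
Signal intensity (log axis) of each named member on the 4 arrays, 1 point per array, for mitotic, replication and G1 members. The dashed line is the floor of 33.3. For Cenpa, Gmnn and Ube2c the points of LPS and SEA/LPS lie left of those of MEDIA and SEA, and for Ccnd2 and Cdkn1a they lie right of them.

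Promoter sequences of the members were searched for the letters of short regulatory elements. The windows below run from 250 bases before to 50 after the transcription start and come from RefSeq (GRCm38.p6). Shown are the 3 mitotic and 3 replication members that had a promoter in the table and the largest differences of LPS below MEDIA. Capitals mark matches, on either strand, to the CHR element (TTTGAA), an E2F site (TTTCGCGC or TTTGGCGC) or a CCAAT box (CCAAT, which reads ATTGG on the other strand). Cenpa lies at chr5:30666636-30666935 (+ strand), Birc5 at chr11:117848987-117849286 (+), Cdk1 at chr10:69352863-69353162 (-), Fen1 at chr19:10204344-10204643 (-), Mcm7 at chr5:138171834-138172133 (-) and Rrm1 at chr7:102441445-102441744 (+). Fen1 and Mcm7 each have 2 starts in the table, and the one listed earlier is printed.
Cenpa: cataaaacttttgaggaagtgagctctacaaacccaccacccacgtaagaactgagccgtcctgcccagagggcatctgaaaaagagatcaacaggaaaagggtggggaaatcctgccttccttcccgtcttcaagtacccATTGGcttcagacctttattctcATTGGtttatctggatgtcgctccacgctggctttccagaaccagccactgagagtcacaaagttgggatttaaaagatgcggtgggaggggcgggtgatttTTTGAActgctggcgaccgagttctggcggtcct
Birc5: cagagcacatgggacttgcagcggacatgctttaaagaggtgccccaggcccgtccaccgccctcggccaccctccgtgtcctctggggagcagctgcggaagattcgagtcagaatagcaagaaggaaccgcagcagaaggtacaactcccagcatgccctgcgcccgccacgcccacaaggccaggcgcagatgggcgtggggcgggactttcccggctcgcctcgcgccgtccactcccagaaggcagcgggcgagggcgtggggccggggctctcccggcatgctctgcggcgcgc
Cdk1: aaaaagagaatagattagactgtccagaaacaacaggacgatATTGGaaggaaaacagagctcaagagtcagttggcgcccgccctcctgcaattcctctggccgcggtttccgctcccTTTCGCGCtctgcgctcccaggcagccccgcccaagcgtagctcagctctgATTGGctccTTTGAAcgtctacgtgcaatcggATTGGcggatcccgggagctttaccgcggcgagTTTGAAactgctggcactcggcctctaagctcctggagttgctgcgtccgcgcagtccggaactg
Fen1: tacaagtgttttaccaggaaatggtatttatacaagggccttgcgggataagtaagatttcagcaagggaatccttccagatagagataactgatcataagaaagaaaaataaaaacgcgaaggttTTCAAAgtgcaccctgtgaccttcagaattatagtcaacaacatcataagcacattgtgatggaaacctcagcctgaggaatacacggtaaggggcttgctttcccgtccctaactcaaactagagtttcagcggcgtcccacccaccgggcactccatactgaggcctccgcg
Mcm7: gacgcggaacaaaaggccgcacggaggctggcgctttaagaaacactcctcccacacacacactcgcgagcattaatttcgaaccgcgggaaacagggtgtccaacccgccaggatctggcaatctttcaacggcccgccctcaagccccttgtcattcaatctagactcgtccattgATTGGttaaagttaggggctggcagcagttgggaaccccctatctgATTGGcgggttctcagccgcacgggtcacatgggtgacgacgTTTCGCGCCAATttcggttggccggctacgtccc
Rrm1: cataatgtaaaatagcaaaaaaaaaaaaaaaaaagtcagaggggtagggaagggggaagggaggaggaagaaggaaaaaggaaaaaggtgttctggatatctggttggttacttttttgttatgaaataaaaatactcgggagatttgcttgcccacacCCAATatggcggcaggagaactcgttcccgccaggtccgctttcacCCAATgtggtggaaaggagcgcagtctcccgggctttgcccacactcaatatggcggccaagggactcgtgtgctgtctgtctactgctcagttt

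The Cdk1 window held 6 matches: a pair of CHR elements beginning 71 and 15 bases before the start, an E2F site and 3 CCAAT boxes. Cenpa had a CHR element just after its start, at position 17, and CCAAT boxes at -109 and -86. In Mcm7 an E2F site at position 17 shares its last base with a CCAAT box. Fen1 had 1 CHR match and Rrm1 2 CCAAT boxes, while Birc5 had none of these letters in this window. Among members with a promoter in the table, 13 of 19 mitotic genes held the CHR letters, against 2 of 12 replication genes, 0 of 3 G1 genes and 20.2% of all 27025 genes in the table. The E2F letters were found in 5 of 12 replication genes (Mcm3, Mcm5, Mcm6, Mcm7 and Cdt1), 1 of 19 mitotic genes (Cdk1) and 0.929% of all genes. With only the 250 bases before the start, the E2F letters stood in 2 of those 5 replication genes and the CHR letters in 9 of 19 mitotic genes, without Cenpa, Plk1, Aurka and Bub1b. A CCAAT box stood in 16 of 19 mitotic genes, 8 of 12 replication genes and 41.1% of all genes. A match is a description of sequence and does not show that a factor binds there.

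LPS went with lower signal for most mitotic members. In LPS over MEDIA, 8 of 19 measured mitotic members were at least 2-fold lower (Cenpa, Birc5, Ccna2, Cdk1, Ccnb2, Ube2c, Cdc20 and Cks1b) and 1 was higher (Mad2l1). Across all measured genes 8.43% were lower and 6.06% higher. The median log2 difference was -0.84 over the measured mitotic members and -0.06 over all measured genes. The same question can be asked of the other 2 arrays, SEA/LPS over SEA. The labels give all arrays the same lot and name no separate cultures or animals. No array is shared with LPS over MEDIA, but independence from it is not shown for SEA/LPS over SEA. There 3 of 19 mitotic members were at least 2-fold lower (Ube2c, Cenpa and Cdc20) and 0 higher, against 6.38% and 4.67% of all measured genes, with a median of -0.54 beside -0.15. Under the 3 other scalings tried, the mitotic median minus that of all genes was -0.79 to -0.69 log2 in LPS over MEDIA and -0.40 to -0.30 in SEA/LPS over SEA. With the floor at the 60th percentile these differences were smaller, -0.40 and -0.24.

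Cenpa, which encodes the histone H3 variant that marks centromeres, had the largest mitotic difference in LPS over MEDIA. Its signal was 223 in MEDIA, 230 in SEA, 46.8 in LPS and 78.5 in SEA/LPS. Both arrays with LPS were below both without it, 4.77-fold for LPS over MEDIA and 2.93-fold for SEA/LPS over SEA. Ube2c, the ubiquitin-conjugating enzyme of the anaphase-promoting complex, read 178 in MEDIA, 189 in SEA, 75.1 in LPS and 45.0 in SEA/LPS. It was 2.36-fold lower without SEA and 4.19-fold lower with SEA. Cdc20, the activator of that complex, read 193, 177, 88.5 and 61.4 in the same order, 2.18-fold and 2.89-fold lower. A dimmer probe set of Cdc20 also read lower in both (-0.79 and -1.37 log2).

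The cyclins and their kinase were lowest with LPS alone and nearer to the control when SEA was present. Ccna2, cyclin A, read 240 in MEDIA, 195 in SEA, 79.6 in LPS and 153 in SEA/LPS, which is 3.02-fold lower for LPS over MEDIA and 1.28-fold lower for SEA/LPS over SEA. Its other probe set gave -1.24 and -0.04 log2. Cdk1, the mitotic kinase, read 175, 182, 59.5 and 125 in that order, 2.95-fold and 1.45-fold lower. Ccnb2, a B-type cyclin, read 109 in MEDIA, 114 with SEA and 63.9 with SEA/LPS, and it was 2.71-fold lower for LPS over MEDIA and 1.78-fold lower for SEA/LPS over SEA. Birc5, which encodes survivin of the chromosomal passenger complex, read 105 in MEDIA, 94.9 with SEA and 62.4 with SEA/LPS, and it was at the floor with LPS, at least 3.15-fold below MEDIA. For these 4 genes the SEA/LPS array lay between the LPS array and both arrays without LPS.

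The remaining mitotic members differed less. Cks1b, a small protein that binds cyclin-dependent kinases, read 355 in MEDIA, 357 in SEA, 177 in LPS and 214 in SEA/LPS, and its other probe set showed -0.26 and -0.69 log2 for the 2 LPS differences. The kinase gene Aurkb (-0.84 and -0.77) and Prc1 (-0.85 and -0.89), which bundles microtubules between the separating chromosomes, had LPS differences of like size without and with SEA. Both were read by probe sets marked as able to cross-hybridise, and the other probe set of each was at the floor on all arrays. Plk1, a mitotic kinase, was at -0.41 without SEA and -0.92 with it. Top2a, the topoisomerase that untangles sister chromatids, was at -0.52 and -0.37, and Nusap1, a spindle protein, at -0.31 and -0.27. Aurka was at the floor with LPS, with a difference of -0.79 or lower there and -0.48 in SEA/LPS over SEA. Bub1b, a spindle checkpoint kinase gene, exceeded the floor in MEDIA alone (55.4), and Kif11, a spindle motor, read 24.9 to 39.7 on all arrays.

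Mad2l1, which encodes a spindle checkpoint protein, went the other way. Its signal was 99.2 in MEDIA, 128 in SEA, 229 in LPS and 213 in SEA/LPS, 2.31-fold higher for LPS over MEDIA and 1.66-fold higher for SEA/LPS over SEA. It had no other probe set. Cks2 was within 2-fold and its probe sets disagreed: the brighter one read 217, 221, 293 and 348 (0.43 and 0.66 log2), and the other read 198, 213, 120 and 157 (-0.72 and -0.44). Mki67, the proliferation antigen Ki-67, read 116 in MEDIA, 85.5 in SEA, 83.8 in LPS and 144 in SEA/LPS, so that its LPS difference was -0.47 without SEA and 0.75 with it.

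Set beside the promoters, 10 of the 13 measured mitotic members with the CHR letters had LPS differences below 0 in both comparisons. Over all measured genes 3885 of 9473 were below 0 in both. The other members with the letters were Bub1b, at the floor on both arrays with SEA, Mki67 and Kif11. Of the 4 without the CHR letters, Birc5 and Nusap1 were below 0 in both, while Mad2l1 and Cks2 were above 0. The other probe set of Cks2 was below 0 in both. With the shorter window Cenpa, Plk1, Aurka and Bub1b lacked the CHR letters. Scaled to the hybridisation controls, Kif11 (-0.19) and Cks2 (-0.12) were below 0 in LPS over MEDIA. Of all 19 measured mitotic members, 14 were below 0 in both. Among measured replication members with a promoter, the number was 7 of 8 without the CHR letters and 2 of 2 with them. These counts are a description of few genes, and a link between the letters and the LPS differences was not tested.

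**Figure D2:**
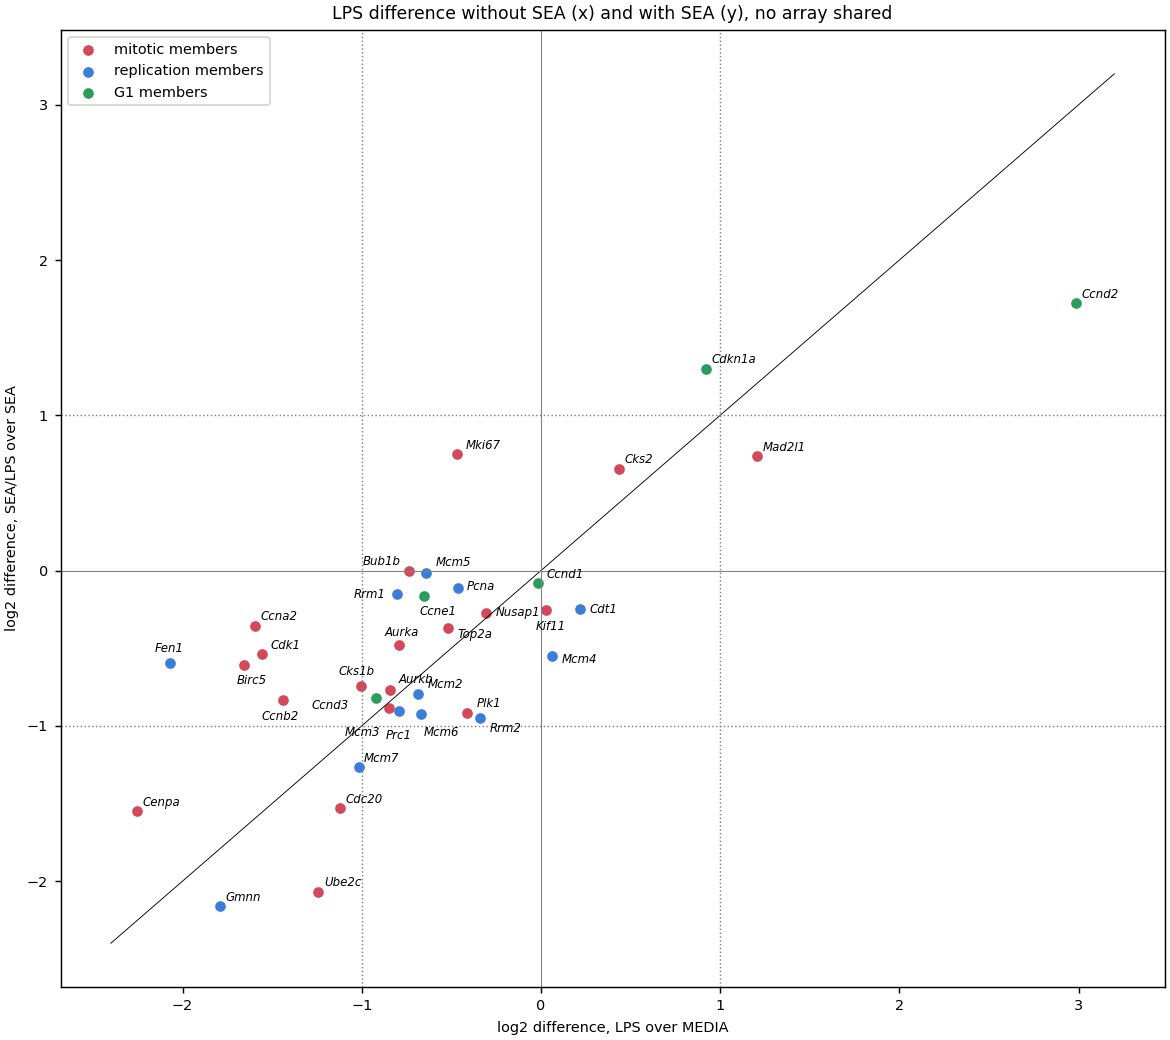
Log2 difference of LPS over MEDIA (x axis) and of SEA/LPS over SEA (y axis) for the 36 measured members, coloured by role. Dotted lines mark 2-fold and the diagonal marks equal differences. In the lower left corner 5 members are past 2-fold on both axes. Differences against an array at the floor are drawn at their bound.

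Replication members were also mostly lower with LPS. In LPS over MEDIA 3 of 12 measured members were at least 2-fold lower (Fen1, Gmnn and Mcm7) and 0 higher, against 8.43% and 6.06% of all measured genes, with a median of -0.68. In SEA/LPS over SEA 2 of 12 were lower (Gmnn and Mcm7) and 0 higher, against 6.38% and 4.67%, and the median was -0.69. There 12 of 12 were below 0, as were 5854 of all 9473 measured genes, though Rrm1, Mcm5 and Pcna came out up to 0.09 above 0 in some of the other scalings. The medians of all measured genes were -0.06 and -0.15. Under the 3 other scalings the replication median minus that of all genes was -0.61 to -0.56 log2 without SEA and -0.62 to -0.52 with SEA. With SEA it was -0.29 without cross-hybridising probe sets and -0.34 with the mean of all probe sets, and without SEA the value nearest 0 was -0.42, with the floor at the 60th percentile.

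Gmnn encodes geminin, which blocks a second round of origin licensing by binding Cdt1. Its signal was 116 in MEDIA, 202 in SEA, 33.6 in LPS and 45.1 in SEA/LPS. Both LPS arrays were below both others, 3.46-fold without SEA and 4.47-fold with it, and the LPS array stood just above the floor. Cdt1 itself, which loads the replicative helicase and is held by geminin, read 149, 151, 173 and 127 in that order and stayed within 2-fold in every comparison.

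Mcm2 to Mcm7 encode the subunits of the replicative helicase. Mcm7 read 181 in MEDIA, 205 in SEA, 89.3 in LPS and 85.1 in SEA/LPS, 2.02-fold and 2.41-fold lower. That probe set is marked as able to cross-hybridise, and the brightest one without such a mark gave -0.40 and -0.62 log2. Mcm3 (-0.79 without SEA and -0.91 with it) and Mcm6 (-0.67 and -0.93) were lower by less than 2-fold. The probe set of Mcm3 is marked in the same way. Its brightest one without the mark was at the floor on both LPS arrays (-0.12 and -0.25 or lower). Mcm2 was at the floor on both LPS arrays, from signals of 53.5 in MEDIA and 57.7 with SEA. Mcm5 read 51.9 in MEDIA, 33.7 with SEA and was at the floor on both LPS arrays. Mcm4 was at 0.06 without SEA (-0.49 when scaled to the hybridisation controls) and -0.55 with it.

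Of the members that act at the replication fork or in nucleotide supply, Pcna, Rrm1 and Rrm2 were within 2-fold in both LPS comparisons, and Fen1 was not. Pcna, the sliding clamp, had signals of 1515 in MEDIA, 1193 in SEA, 1098 in LPS and 1102 in SEA/LPS, a difference of -0.46 without SEA and -0.11 with it. Rrm1 (-0.81 and -0.15) and Rrm2 (-0.34 and -0.95) encode the subunits of ribonucleotide reductase. The other probe set of Rrm1 gave -0.52 and -0.67, so which of its LPS differences is larger depends on the probe set. The Rrm2 values come from a probe set marked as able to cross-hybridise. Its brightest one without the mark was at the floor on both LPS arrays (-0.58 and -0.33 or lower). Fen1, the flap endonuclease, read 321 in MEDIA, 644 in SEA, 76.3 in LPS and 427 in SEA/LPS on its brighter probe set, which is marked as able to cross-hybridise. Its other probe set read 51.2 in MEDIA, 43.1 with LPS and 39.9 with SEA/LPS, and it differed by 0.23 log2 in SEA over MEDIA, so the large differences of Fen1 rest on 1 probe set.

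Among the G1 members 1 cyclin was much higher with LPS and the others differed less. Ccnd2, cyclin D2, was 7.93-fold higher in LPS over MEDIA and 3.30-fold higher in SEA/LPS over SEA, with signals of 786 in MEDIA, 925 in SEA, 6227 in LPS and 3054 in SEA/LPS. Ccnd3, cyclin D3, was lower on both LPS arrays (548, 497, 290 and 281 in that order, or -0.92 and -0.82 log2). Ccnd1, cyclin D1, read 144, 182, 142 and 172 (-0.02 and -0.08, and 0.12 in both when scaled to the 75th percentile). Ccne1, cyclin E1, read 72.6, 57.7, 46.1 and 51.4. Cdkn1a, the cyclin-dependent kinase inhibitor that p53 induces, read 1649, 1547, 3117 and 3814, just under 2-fold higher without SEA (0.92 log2) and 2.46-fold higher with it. Its other probe set was higher too (1.51 and 0.90 log2). Of the other probe sets of Ccnd1, one gave 0.12 and -0.07, and the dimmest read 47.1 in MEDIA, 35.2 in SEA and 94.3 in SEA/LPS and was at the floor in LPS, with a difference of -0.50 or lower without SEA and 1.42 with it. The direction for Ccnd1 thus depends on the probe set.

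Ccnd2 was read by 7 probe sets, 5 of them above the floor on all arrays. All 5 were higher with LPS, by 6.68-fold to 14.3-fold in LPS over MEDIA and by 2.36-fold to 6.32-fold in SEA/LPS over SEA. They differed on SEA/LPS over LPS, where the log2 difference ran from -2.07 (signals of 4495 with LPS and 1071 with SEA/LPS) to 0.05 (3069 and 3177), with -1.03 on the brightest. As a gauge of RNA quality, the 3′ probe set of Gapdh was 2.21 times as bright as the 5′ one in MEDIA and 2.42 times with LPS. That ratio was 2.69 with SEA and 3.12, the highest of the 4, with SEA/LPS. For Actb the 3′ to 5′ ratio was 1.20 in MEDIA, 1.37 in SEA, 1.24 in LPS and 1.26 in SEA/LPS, so it was highest with SEA. The part of RNA quality in the spread of the Ccnd2 probe sets, or in any other difference here, was not tested.

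**Figure D3:**
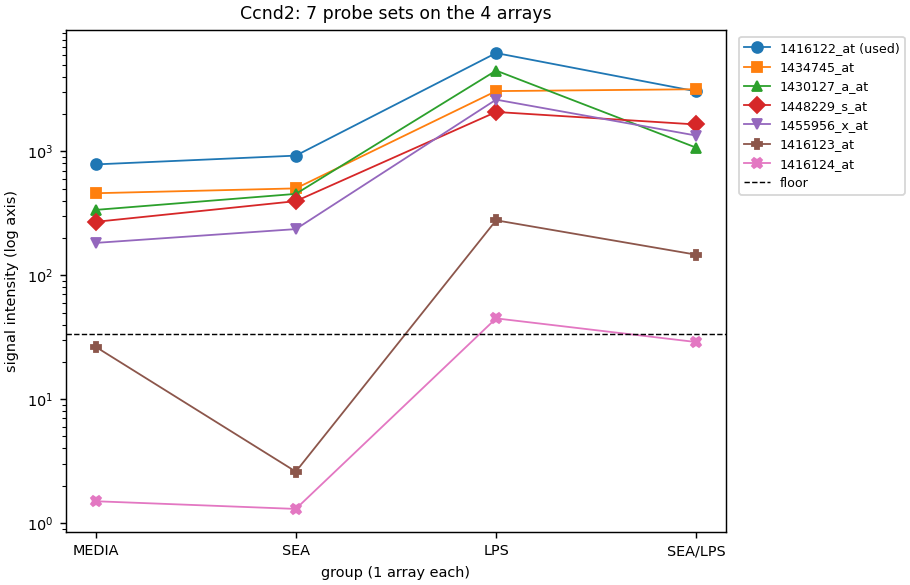
Signal intensity (log axis) of the 7 probe sets of Ccnd2 on the 4 arrays, 1 line per probe set. All 5 lines above the floor throughout are higher with LPS and with SEA/LPS than in MEDIA and SEA, and from LPS to SEA/LPS their differences run from -2.07 to 0.05 log2.

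Over all 36 measured members, 22 were at least 1.5-fold lower and 3 higher in LPS over MEDIA, against 21.0% and 14.1% of all measured genes. In SEA/LPS over SEA 17 were lower and 5 higher at that size, against 20.4% and 9.45%. Lower in both comparisons were 15 of 36 members, against 9.45% of all measured genes. At 2-fold or more in both, 5 were lower (Cdc20, Ube2c, Cenpa, Mcm7 and Gmnn), against 2.72%, and 1 was higher (Ccnd2), against 3.35%. These counts depend on the scaling. With the hybridisation controls as the reference, which put the median of all genes at -0.56 in LPS over MEDIA and -0.37 in SEA/LPS over SEA, 22 members were at least 2-fold lower and 1 higher in the former, against 25.5% and 2.98% of all genes under that scaling. In the latter 12 were lower and 2 higher, against 1142 and 322 of 9534 genes.

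Further mitotic and replication genes had medians below that of all genes, and most of them stayed within 2-fold. Of 27 other measured mitotic genes, 1 was at least 2-fold lower in LPS over MEDIA (Kif22) and 2 were higher (Pttg1 and Nek2), against 8.43% and 6.06% of all measured genes, with a median of -0.40. In SEA/LPS over SEA 2 were lower (Cdc25b and Tacc3) and 1 higher (Pttg1), against 6.38% and 4.67%, with a median of -0.34. Pttg1, the securin that guards sister chromatid cohesion, read 1058 in MEDIA, 1134 in SEA, 2774 in LPS and 3070 in SEA/LPS, 2.62-fold and 2.71-fold higher. Among 29 other replication genes 4 were lower and 0 higher in each comparison, against the same shares, with medians of -0.41 and -0.35. Lower in LPS over MEDIA were Dnmt1, Orc5, Dut and Rfc5. In SEA/LPS over SEA they were Asf1b (-1.13 log2), Pold1 (-1.13), Dut and Orc5. Dut, the dUTPase, read 102, 88.2, 43.3 and 41.8, 2.36-fold and 2.11-fold lower. Orc5, a subunit of the origin recognition complex, was at the floor on both LPS arrays, at least 2.45-fold and 2.03-fold lower. Dnmt1, the maintenance DNA methyltransferase, was 2.56-fold and 1.77-fold lower, and Rfc5, a clamp loader subunit, was at -1.21 and -0.74 log2.

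Other genes of G1 and E2F control went in both directions. Of 25 measured, 3 were higher and 4 lower in LPS over MEDIA (median -0.43), against 6.06% and 8.43% of all measured genes. With SEA present 2 were higher and 2 lower, against 4.67% and 6.38%, and the median was -0.15, as over all measured genes (-0.15). Ccng2, the growth-restraining cyclin G2, read 272 in MEDIA, 240 in SEA, 880 in LPS and 727 in SEA/LPS, 3.24-fold and 3.02-fold higher. Rbl1, the retinoblastoma relative p107, read 60.9, 59.2, 174 and 176, 2.86-fold and 2.97-fold higher. Wee1, which restrains Cdk1, was at the floor with LPS, at least 2.77-fold lower, and 2.09-fold lower in SEA/LPS over SEA. Cdk4, the partner of D-type cyclins, read 269, 308, 133 and 140, 2.02-fold and 2.21-fold lower. E2f5 was 2.41-fold higher in LPS over MEDIA and 1.51-fold higher in SEA/LPS over SEA.

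**Figure D4:**
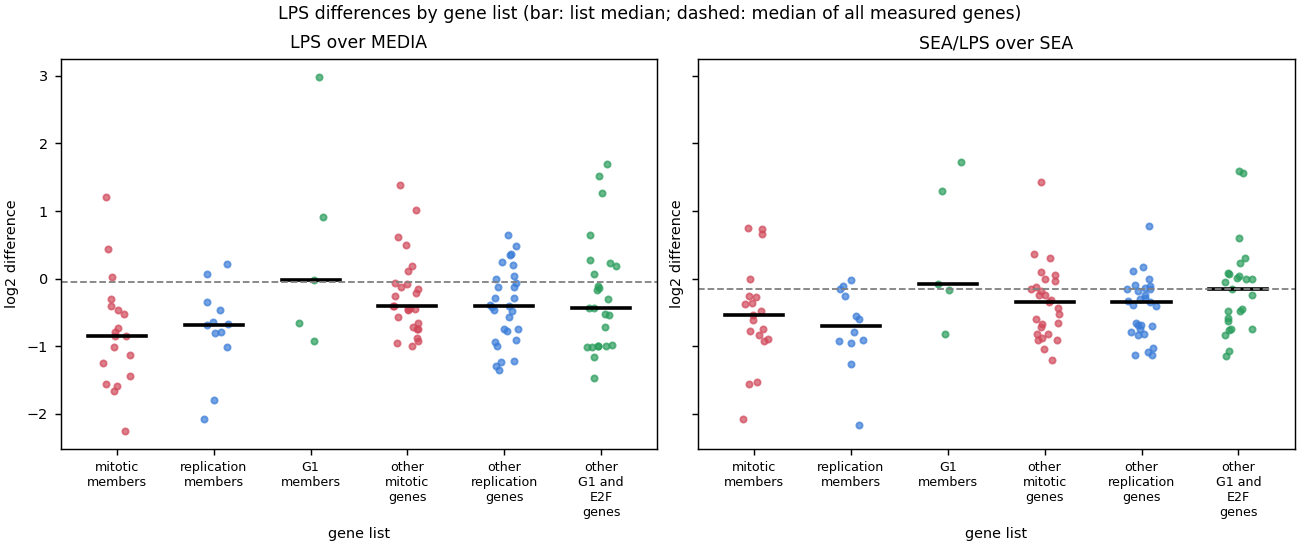
Log2 difference of each measured gene (points) in 6 gene lists for LPS over MEDIA (left) and SEA/LPS over SEA (right). Bars mark the list medians, which run from -0.84 to -0.02 on the left, and the dashed line marks the median of all measured genes.

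SEA alone left these genes near their MEDIA level. In SEA over MEDIA 1 of 36 measured members was at least 2-fold higher, Fen1 on the probe set described above (2.01-fold), and 0 were lower, against 0.644% and 0.633% of all measured genes. At 1.5-fold 2 were higher (Fen1 and Gmnn) and 2 lower (Bub1b and Mcm5), against 5.09% and 4.01%. The median was 0.03, and 0.00 over all measured genes. Gmnn was 1.74-fold higher with SEA. Bub1b was at the floor with SEA, and Mcm5 was at -0.62. Cdk1 (0.05), Ccnb2 (0.07), Ube2c (0.09), Cenpa (0.04), Prc1 (0.01) and Cks1b (0.01) differed by less than 0.1 log2. Of the further lists, Hmmr, a spindle-associated hyaluronan receptor, was past 2-fold, with 78.1 in MEDIA and 37.8 with SEA. Its next probe set read 39.8 and 43.0 (0.11 log2), and the rest were at -0.01 or at the floor. The difference of Hmmr thus rests on its brightest probe set.

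With SEA added to LPS, mitotic members lay on both sides of their LPS level. In SEA/LPS over LPS 2 of 36 measured members were at least 2-fold higher (Fen1 and Cdk1) and 1 lower (Ccnd2), against 1.39% and 3.47% of all measured genes, and the median was 0.02 beside -0.01 over all. At 1.5-fold, 7 of 19 mitotic members were higher, Cdk1 (2.10-fold), Ccna2 (1.92-fold), Birc5 (at least 1.87-fold), Mki67 (1.71-fold), Cenpa (1.68-fold), Aurka (at least 1.65-fold) and Ccnb2 (0.68 log2). At the same size Plk1 (1.79-fold) and Ube2c (1.67-fold) were lower, with Cdc20 next at 1.44-fold. Across all measured genes 7.76% were higher and 13.4% lower at 1.5-fold. Under each of the 3 other scalings 4 members were at least 2-fold higher, against 2.02% to 3.14% of all genes: Fen1, Cdk1 and Ccna2, joined by Mki67 when scaled to the hybridisation controls and by Birc5 in the others. Ccnd2 was under 2-fold when scaled to the 75th percentile (-0.96) or to the hybridisation controls (-0.79), which left 0 members lower.

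Apart from Fen1, Mcm2 and Mcm5, the measured replication members stayed within 1.5-fold of their LPS level, from Cdt1 at -0.45 to Rrm1 at 0.46. Mcm2 and Mcm5 were at the floor on both of these arrays, so no difference could be read. Fen1 was 5.59-fold higher on its brighter probe set and at -0.11 log2 on the other. In the further lists Smc2, a condensin subunit, was at the floor with LPS and at least 2.16-fold higher with SEA/LPS, and Cdkn2b, an inhibitor of the cyclin D kinases, was 2.11-fold higher. The DNA polymerase subunits Pola2 (120 with LPS and 49.6 with SEA/LPS) and Pold1 (111 and 54.2) were lower.

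**Figure D5:**
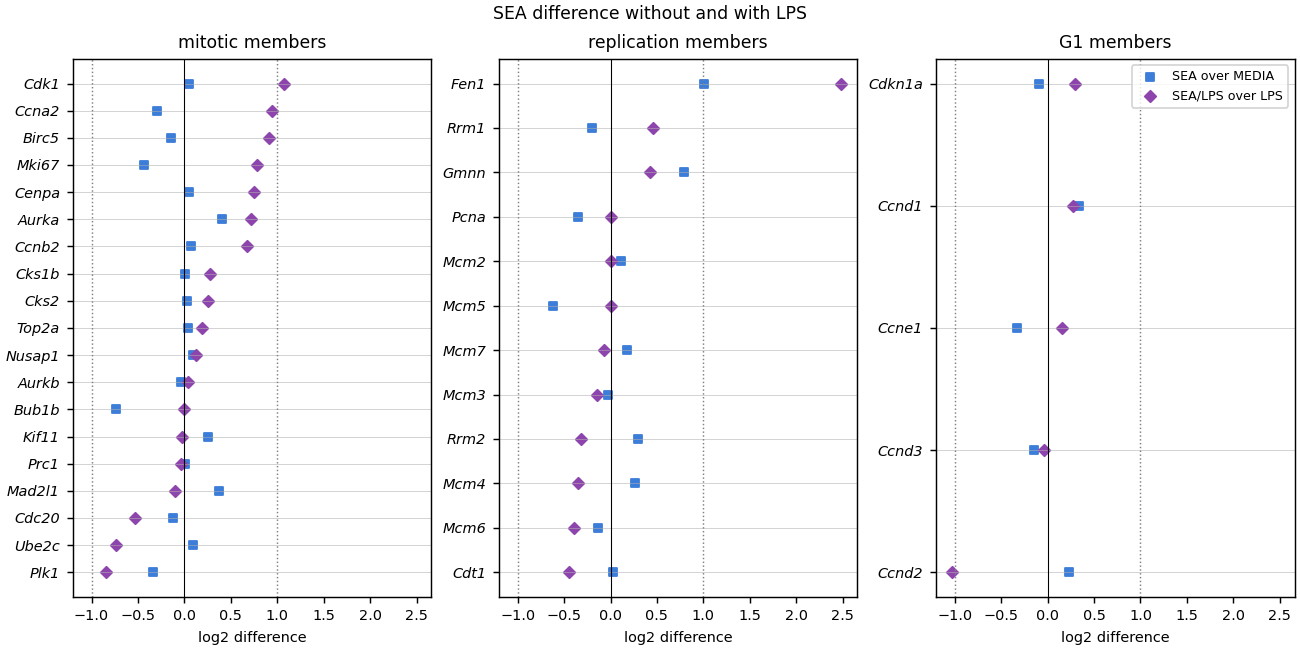
Log2 difference of SEA over MEDIA (squares) and of SEA/LPS over LPS (diamonds) for the measured mitotic, replication and G1 members, each panel sorted by the diamonds. Dotted lines mark 2-fold. Most squares lie near 0, while the diamonds of the mitotic members run from Plk1 at -0.84 to Cdk1 at 1.07.

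With both agents most members read below MEDIA. In SEA/LPS over MEDIA 7 of 36 were at least 2-fold lower (Ube2c, Cdc20, Cenpa, Gmnn, Plk1, Mcm7 and Mcm6) and 3 higher (Ccnd2, Cdkn1a and Mad2l1), against 7.05% and 4.54% of all measured genes. At 1.5-fold 19 were lower and 4 higher, against 20.2% and 9.87%. Scaled to the hybridisation controls, with the median of all genes at -0.42, 14 were at least 2-fold lower and 1 higher, against 15.3% and 3.02%. The median was -0.65, and -0.12 over all measured genes. This comparison shares its MEDIA array with LPS over MEDIA and its SEA/LPS array with the other comparisons of that group, so it is no separate evidence.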

How the data were processed

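The 4 columns hold 1-colour array intensity values as deposited by the authors, on a linear scale judged from the values. Their 2% trimmed means were 150.1 in all 4 columns, so the arrays had been scaled to a common mean, and a difference in total RNA cannot be seen. The sources used here do not state the software, background step or reader settings. Of 22690 probe sets, 64 were controls, 20380 carried 1 gene symbol and 691 several, and the last were left out. Entrez identifiers of 20351 matched GRCm38.p6, used for names.

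Values were floored at the pooled 40th percentile (33.3) and log2 was taken. The probe set with the highest mean over the 4 arrays stood for its gene. With 1 sample per group no test was run. Steps were written in Python 3.11.15 with pandas 2.3.3 and tested on simulated data. The named genes were all 41 members and, of each further list, genes from the up to 4 past 2-fold with the largest difference in a comparison. Not every such gene is described. Members and lists were chosen with earlier results of these data known. Alternatives were 3 scalings, 3 floors, 2 ways of choosing probe sets, a 1.5-fold threshold and a shorter promoter window.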

Additional observations from a re-analysis of the deposited data

Results flagged for a closer look

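For Ccna2, Birc5, Mki67 and Ccnd2, among the 36 measured members, the same agent went with opposite directions on the 2 pairs of arrays, with differences at least 2-fold apart. With 1 array per group this was not tested. The share of all measured genes meeting both conditions was not counted, so these members cannot be set against it. Whatever their signs, the 2 LPS differences were at least 2-fold apart upward with SEA in 5 members and downward in 1. Over all 9473 measured genes these numbers were 299 and 620. The SEA difference of Ccna2 was -0.30 log2 without LPS and 0.94 with it, 1.24 apart. That of Birc5 was -0.15 and at least 0.91, so that at least 1.05 lay between them. For Mki67 the values were -0.44 and 0.78, and its LPS difference was -0.47 without SEA and 0.75 with it, 1.22 apart in both views. Ccnd2 had 0.24 without LPS and -1.03 with it, a change of -1.26 on the brightest of its probe sets. Another of its probe sets, above the floor on all arrays, had 0.13 and 0.05, so the opposite directions of Ccnd2 depend on the probe set.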

How the results depend on the processing

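No paired analysis was possible because each group has 1 sample. The median of all genes in LPS over MEDIA, -0.06 as deposited, was -0.56 when scaled to the hybridisation controls. With that scaling the members at least 2-fold lower and higher numbered 22 and 1 in LPS over MEDIA, 12 lower in SEA/LPS over SEA, 0 higher in SEA over MEDIA, 0 lower and 4 higher in SEA/LPS over LPS, and 14 lower and 1 higher in SEA/LPS over MEDIA. At 1.5-fold, 22 were lower in LPS over MEDIA, 17 lower and 5 higher in SEA/LPS over SEA, 2 lower and 2 higher in SEA over MEDIA, 3 lower and 8 higher in SEA/LPS over LPS, and 19 lower in SEA/LPS over MEDIA. The shares of all measured genes, in that order, were 21.0%, 20.4% and 9.45%, 4.01% and 5.09%, 13.4% and 7.76%, and 20.2%. With the mean of all probe sets, 3 were lower in SEA/LPS over SEA, 0 higher in SEA over MEDIA, 0 lower in SEA/LPS over LPS and 4 lower in SEA/LPS over MEDIA. The matching shares of all genes were 4.78%, 0.391%, 2.77% and 5.47%. In SEA/LPS over LPS the members higher numbered 4 when scaled to the 75th percentile (with 0 lower), 4 under quantile normalization, 5 with a floor at the 20th percentile, 1 with a floor at the 60th and 1 without cross-hybridising probe sets. Of all genes 2.02% (with 3.08% lower), 2.10%, 4.30%, 0.837% and 1.41% were higher under these settings, in that order. In SEA over MEDIA none was higher (0) without a floor or without cross-hybridising probe sets, against 1.38% and 0.614% of all genes. Without cross-hybridising probe sets Fen1 in SEA/LPS over LPS turned to -0.11.

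Medians near 0 changed sign. In SEA over MEDIA, scaling to the hybridisation controls gave -0.0607 over all members, -0.0575 over mitotic and -0.0203 over replication members, whose median was -0.0309 with the mean of all probe sets and -0.0131 without cross-hybridising ones. The G1 median turned to 0.12 (75th percentile), 0.12 (quantile) and 0.45 (60th percentile floor) in LPS over MEDIA, and to 0.12, 0.0858 and 0.61 under the same settings in SEA/LPS over SEA, where the mean of all probe sets gave 0.42. It was 0.0723 with the 60th percentile floor in SEA over MEDIA, -0.0439 with the mean of all probe sets in SEA/LPS over LPS and -0.0525 with hybridisation controls in SEA/LPS over MEDIA. The replication median in SEA/LPS over LPS was 0.0051 (quantile) and 0.0489 (hybridisation controls). The LPS difference with SEA minus that without had a median of -0.0133 over all members with the 60th percentile floor and 0.0744 over replication members with hybridisation controls. The E2F letters stood in 2 replication promoters with the shorter window. Of 272 alternative values for the 34 single differences past 2-fold, 225 stayed past 2-fold, 46 fell under it and 1 reversed. The cause was not tested.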
